A study of Mus musculus with 2 samples.

Results

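Immediate early genes and heat shock genes were followed as a set of 30 genes in single intestinal epithelial cells of mice given DSS (dextran sulfate sodium), which damages the intestinal epithelium. The members were chosen by gene symbol and made up 30 of the 32285 genes in both count tables. They comprised 19 immediate early genes and 11 heat shock proteins with their cochaperones, and the lists were kept apart throughout. All 30 symbols were found once in each table, and all 30 had at least 1 unique molecular identifier (UMI) in epithelial cells of both libraries.

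Immediate early genes are transcribed within minutes of a stimulus from preassembled regulators and need no new protein synthesis. Many encode transcription factors of the AP-1, EGR, KLF and NR4A families, and others encode proteins that end the response, such as phosphatases and RNA-decay factors. Heat shock proteins are chaperones that hold, fold or refold other proteins. Some of them, such as HSPA1A and HSPA1B, are made mainly after stress through the factor HSF1, whereas HSPA8 and HSP90AB1 are made at a steady high level and increase with protein synthesis. In intestine, KLF4 belongs to the programme of goblet cell maturation, and enzymatic release of cells from tissue is itself a known trigger of immediate early transcription.

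The comparison was between 1 library from wild type (WT) mice and 1 library from mice that carry the MG53 transgene (MG53-TG). MG53, also called TRIM72, is a membrane repair protein of muscle, and the transgenic line overexpresses it throughout the body rather than in the epithelium alone. Mice of both genotypes had received 2.5% DSS and were taken on day 7, so that no library without DSS was analysed here. Isolated crypts were dissociated into cells with TrypLE, live EpCAM-positive cells were sorted, and 3′ ends were captured with the 10x Genomics chemistry of version 3. WT mice were littermates. The DSS dose, the day and the use of several mice per genotype come from the study's text; the labels give neither the mice in a library nor their age, and cells could not be traced to a mouse. With 1 library per group there is no test between genotypes. Each interval is at 95% and covers counting error only, so that a difference between genotypes and a difference between these libraries cannot be told apart.

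Epithelial clusters held 6125 WT cells with 106190614 UMIs (median 15667 per cell) and 4608 MG53-TG cells with 89984928 UMIs (median 18658). The transgene checked the labels, with 0.593 CPM (UMIs per 1000000 UMIs) of Trim72 in WT and 50.8 CPM in MG53-TG. The sorted marker Epcam stood at 567 and 600 CPM. Marker genes named 8 epithelial types, called stem-like, secretory progenitor-like, goblet-like, Paneth-like, enteroendocrine-like, tuft-like, absorptive-like and ileal absorptive-like, and the 30 members took no part in the clustering. Genes of cell division led cluster 6, which held 520 of the 1298 WT stem-like cells, and cluster 19, which held 61 of the 124 WT secretory progenitor-like cells, so that both types are partly cycling cells. Replication genes were also frequent among the leading genes of cluster 5, the other stem-like one, and cluster 18, the other secretory progenitor-like one, had 9 tuft markers beside 7 of its own list. Markers of other cells remained in the epithelial sums. Per 1000000 non-mitochondrial UMIs, the 13 T cell markers summed to 60.1 in WT and 29.9 in MG53-TG, and the 8 B or plasma cell markers to 244 and 31.5, with 1 of these at 0 in MG53-TG. Their part in the results below was not tested. The mitochondrial limit of 25% removed 33.7% of WT and 46.1% of MG53-TG barcodes that passed the other minimums, and 8 barcodes occurred in both libraries.

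Upstream sequences are shown for members whose values bear on a shared or duplicated promoter, and for the only immediate early gene of the 17 with a window that held a CArG box, the site of serum response factor. RefSeq windows (build GRCm38.p6) were matched for 25 of the 30 members, and the search covered both strands of 250 bases before and 50 bases after a start site. Hspd1 and Hspe1, which encode the large and the small subunit of the mitochondrial chaperonin, lie head to head on chromosome 1 with RefSeq start sites 216 bases apart, at 55087932 and 55088148. The GENCODE gene extents given further on reach to the outermost transcripts, and there the genes overlap at these ends and the extent of Hspd1 includes the stretch shown here. A run of 18 bases at chr1:55088059-55088076 lies in the windows of both genes and holds 2 overlapping matches to the heat shock element of 3 units. The stretch chr1:55088053-55088082 is given on the plus strand with this run in capitals.
Hspe1 and Hspd1: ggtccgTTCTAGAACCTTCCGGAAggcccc
Hspa1a and Hspa1b, the stress-inducible Hsp70 genes, are near-identical copies on chromosome 17. Their 250 upstream bases, at chr17:34972157-34972406 and chr17:34959239-34959488 on the minus strand, were the same at 247 positions (98.8%). Capitals mark a heat shock element of 2 units (GAANNTTC or TTCNNGAA).
Hspa1a: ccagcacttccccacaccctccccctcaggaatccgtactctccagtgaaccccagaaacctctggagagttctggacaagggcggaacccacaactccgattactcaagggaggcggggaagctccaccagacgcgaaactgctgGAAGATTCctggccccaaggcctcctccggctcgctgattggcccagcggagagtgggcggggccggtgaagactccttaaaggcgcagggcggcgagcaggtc
Hspa1b: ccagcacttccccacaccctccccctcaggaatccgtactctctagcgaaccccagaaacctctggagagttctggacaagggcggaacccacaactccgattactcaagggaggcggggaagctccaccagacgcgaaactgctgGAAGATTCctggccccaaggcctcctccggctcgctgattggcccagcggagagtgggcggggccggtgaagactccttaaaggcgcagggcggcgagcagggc
Zfp36, which encodes a factor of mRNA decay, is shown for chr7:28379267-28379296 on the minus strand with the CArG box in capitals.
Zfp36: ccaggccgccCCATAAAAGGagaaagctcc

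The lists differed in these letters. A heat shock element of 2 units was found in 7 of 8 chaperone members with a window and in 1 of 17 immediate early members (Jun), against 17.0% of all 27025 genes with a window. The 7 are not separate promoters, since Hspd1 and Hspe1 share the same run and Hspa1a and Hspa1b are near-identical copies. Hspa8, Hsp90aa1 and Hsp90ab1, the most abundant cytosolic chaperones of the list, had no window. Elements of 3 units, which contain those of 2, were found in Hspd1, Hspe1 and Hsph1 and in 0.662% of all genes. The CRE (TGACGTCA), read by CREB and ATF factors, occurred in Btg2 and Dusp1 and in 2.03% of genes, and the CArG box in 1.81%. The AP-1 site (TGANTCA) occurred in none of the 25 members and in 8.97% of genes. A match is no bound site, and the lack of one says only that the letters are not in this window.

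Immediate early genes together were higher in the MG53-TG library, whose makeup of cell types also differed. Their summed level in epithelial cells was 718 CPM in WT against 964 CPM in MG53-TG, a log2 ratio of 0.43 (interval 0.41 to 0.44). Chaperones went the other way, with 3982 CPM in WT against 3561 CPM in MG53-TG (log2 ratio -0.16, interval -0.17 to -0.15). With the cluster makeup of WT given to both libraries, an alternative described further on, these ratios were 0.13 and -0.0015. The median over immediate early members was 0.29, with 16 of 19 above 0, and that over the 10 chaperones with at least 30 UMIs was -0.14, with 3 above 0. The median over all 14675 genes with at least 30 UMIs was 0.090. Calls were made among the 7582 genes with 30 UMIs over both libraries and 10 CPM in either. A gene was called higher or lower at a log2 ratio of 0.5 or more in size. Called higher were 4 of 14 immediate early genes that met the minimums and 0 of 8 chaperones, against 4.89% of all genes; at the WT makeup all 4 were under that size. Called lower were 0 of either list, against 0.923%. At a log2 ratio of 0.3, 7 members were called higher (15.1% of all genes) and 1 lower (3.13%). At a log2 ratio of 1 no member was called higher (0.145% of all genes) or lower (0.356%). When ratios were centred on the median of all genes, Gadd45b lost its call and Fos, Fosb and Klf4 kept theirs.

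**Figure D1:**
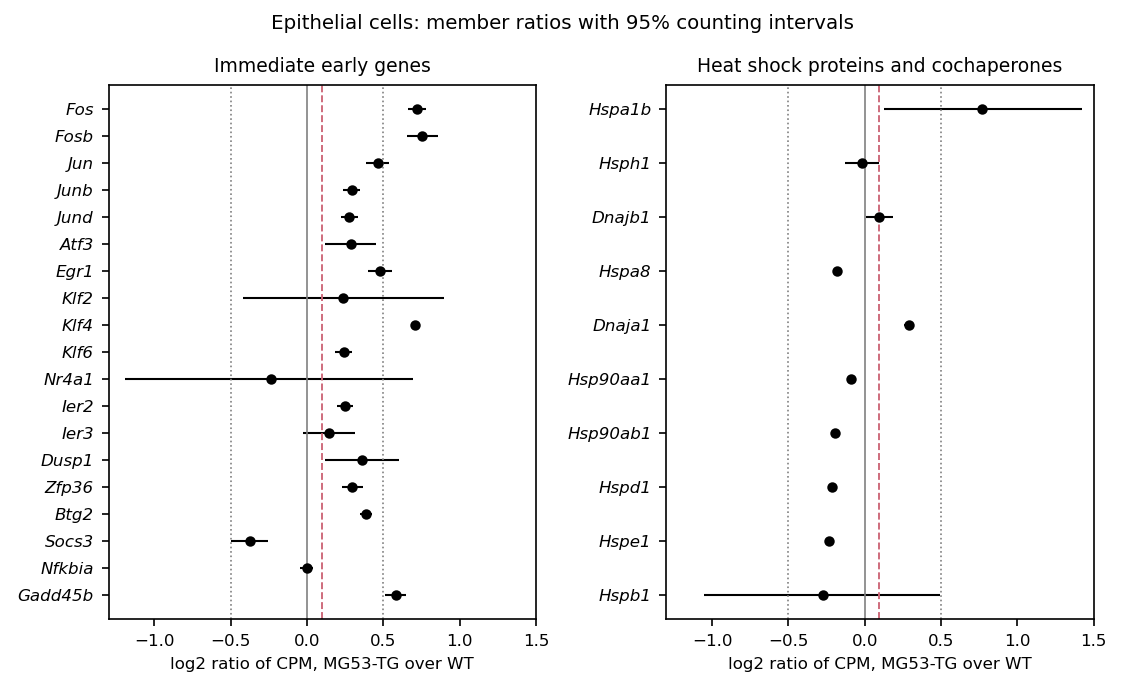
Log2 ratio of CPM (MG53-TG over WT, horizontal axis) for each member with at least 30 UMIs in epithelial cells, with 95% counting intervals as bars. The dashed line is the median of all genes tested, dotted lines mark the size used for a call, and Fos, Fosb, Klf4 and Gadd45b lie past the upper one while most chaperones lie just under 0. Hspa1b also lies past it but was too rare to meet the minimums.

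AP-1 is the dimer of FOS and JUN family proteins. Fos (chr12:85473890-85477273), its prototype inducible subunit, had 4257 UMIs or 40.1 CPM in WT (interval 38.9 to 41.3) and 5949 UMIs or 66.1 CPM in MG53-TG (interval 64.4 to 67.8). This amounts to a log2 ratio of 0.72 (0.66 to 0.78). Fosb, a close relative, had 12.4 CPM in WT against 21.0 CPM in MG53-TG (log2 ratio 0.76, interval 0.65 to 0.86). The partner Jun (chr4:95049034-95052222) had 25.5 and 35.1 CPM, with a log2 ratio of 0.46. Junb had 43.8 and 53.7 CPM and Jund 47.1 and 57.1 CPM, at log2 ratios of 0.29 and 0.28. Atf3, a stress-induced ATF factor that dimerises with JUN proteins, had 5.50 and 6.71 CPM, also at 0.29 (interval 0.12 to 0.45). All 6 AP-1 subunits were thus above 0 and, summed, at 174 CPM in WT against 240 CPM in MG53-TG.

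Among the other transcription factors, Klf4 carried most of the molecules. Klf4 (chr4:55527143-55532466) had 18132 UMIs in WT against 25104 in MG53-TG, or 171 and 279 CPM, a log2 ratio of 0.71 (interval 0.68 to 0.74). It provided 23.8% of all immediate early UMIs in WT and 28.9% in MG53-TG. Without Klf4 the list had a log2 ratio of 0.33. Egr1, a zinc finger factor downstream of ERK signalling, had 21.6 and 30.03 CPM (log2 ratio 0.48, interval 0.40 to 0.56). Klf6, related to Klf4 but widely expressed, had 52.2 and 61.6 CPM at a ratio of 0.24. Klf2 (41 UMIs in each library) and Nr4a1, an orphan nuclear receptor (25 and 18 UMIs), were too rare, and a difference was not detectable at this depth.

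The remaining immediate early members act mostly as brakes or damage sensors. Gadd45b (chr10:80930073-80932204), which binds stress-activated kinases, had 27.4 CPM in WT against 41.0 CPM in MG53-TG (log2 ratio 0.58, interval 0.51 to 0.65). Btg2, an antiproliferative partner of the mRNA deadenylase, had 88.1 and 115 CPM at a ratio of 0.39. Zfp36 had 29.4 and 36.1 CPM (0.30), and Ier2, a nuclear growth factor-response protein, had 50.3 and 59.8 CPM (0.25). Dusp1, a phosphatase of MAP kinases, was low, with 271 UMIs in WT against 295 in MG53-TG, or 2.55 and 3.28 CPM (0.36, interval 0.12 to 0.61). For Ier3, with 5.64 and 6.23 CPM, the interval spanned 0. Nfkbia, which encodes the NF-κB inhibitor IκBα, had 81.3 CPM in WT against 81.2 CPM in MG53-TG (log2 ratio -0.00, interval -0.05 to 0.04). Socs3, the feedback inhibitor of cytokine receptors that signal through STAT3, was the only member of the list with an interval below 0. It had 13.4 CPM in WT against 10.3 CPM in MG53-TG (log2 ratio -0.38, interval -0.50 to -0.26).

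The inducible chaperones were scarce. Hspa1a had 7 UMIs in WT against 16 in MG53-TG, and Hspa1b had 36 and 52 UMIs, or 0.339 and 0.578 CPM (log2 ratio 0.77, interval 0.13 to 1.42). How reads that match both copies were counted is not stated, so the split between them is uncertain. Hsph1, a nucleotide exchange factor for Hsp70, had 13.5 and 13.4 CPM, and Dnajb1, the J-domain partner of inducible Hsp70, had 20.3 and 21.7 CPM. Both differed by 0.10 or less on the log2 scale. Hspb1, a small heat shock protein, had 37 UMIs in WT against 26 in MG53-TG, of which 33 and 23 lay in enteroendocrine-like cells. A difference in Hspb1 was not detectable at this depth.

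Hspa8, Dnaja1, Hsp90aa1 and Hsp90ab1 held most UMIs of the chaperone list, with 325114 of 422846 in WT and 248993 of 320419 in MG53-TG. Hspd1 and Hspe1 together had 94058 and 68176. Hsp90ab1 (chr17:45567775-45573271), the steady Hsp90 isoform, had 1779 CPM in WT against 1553 CPM in MG53-TG (log2 ratio -0.20, interval -0.21 to -0.19) and gave 44.7% and 43.6% of chaperone UMIs. Hspa8, the steady cytosolic Hsp70, had 804 and 707 CPM at a ratio of -0.18. Hsp90aa1, the inducible Hsp90 isoform, had 277 and 261 CPM at -0.09. Dnaja1, a J-domain cochaperone of Hspa8, was the exception among the abundant chaperones, with 201 CPM in WT against 245 CPM in MG53-TG (log2 ratio 0.29, interval 0.26 to 0.31). The chaperonin genes Hspd1 (chr1:55077835-55088243) and Hspe1 (chr1:55088132-55091307), which share the run of elements shown above, had 395 and 341 CPM and 491 and 417 CPM. Their log2 ratios were -0.21 and -0.23.

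Levels differed far more between cell types than between libraries. Among the 8 named types, the immediate early sum in WT was highest in goblet-like cells (1377 CPM). Enteroendocrine-like (1149 CPM) and ileal absorptive-like cells (1027 CPM) followed, and stem-like (375 CPM) and Paneth-like cells (241 CPM) were lowest. In MG53-TG the order of named types at the top was goblet-like (1475 CPM), ileal absorptive-like (1417 CPM) and enteroendocrine-like (1318 CPM). Cluster 11, which stayed unnamed and had ileal absorptive as its best marker list, lay above goblet-like cells in both libraries (1434 and 1555 CPM). Both orders leave it out. Chaperones had another order. Their sum in WT was 7373 CPM in stem-like and 5400 CPM in secretory progenitor-like cells, against 2301 CPM in goblet-like and 816 CPM in Paneth-like cells. Within the stem-like type, WT had 6887 CPM in cluster 6, led by mitosis and histone genes, and 7836 CPM in cluster 5, led by stem cell and replication genes. Over the 18 epithelial clusters the list levels went in opposite directions, with Spearman's rho of -0.49 in WT and -0.43 in MG53-TG. The clusters of a library share its depth and its free RNA, so that these coefficients are descriptions only. Paneth-like levels are relative to a few very abundant transcripts, since their 10 highest genes took 69.5% (WT) and 74.1% (MG53-TG) of UMIs, compared with 8.38% and 8.13% in stem-like cells.

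Of the 19 immediate early genes, 13 had their highest type in common between libraries, and of 10 chaperones with at least 30 UMIs in these types, 8 did. Klf4 had its highest type sum in goblet-like cells, with 515 CPM in WT against 576 CPM in MG53-TG there, and 17.8 and 17.5 CPM in stem-like cells. It was as high in cluster 2 of the ileal absorptive-like cells, at 512 and 619 CPM. Among the named types, Fos was also highest in goblet-like cells (107 and 120 CPM), and Fosb likewise (40.9 and 46.4 CPM). Unnamed cluster 11 had 113 and 133 CPM of Fos. Tuft-like cells had almost no Fos (8 and 5 UMIs) or Fosb (0 and 3 UMIs, where a count of 0 allows up to 3), but had 188 and 190 CPM of Klf4. Egr1 was highest in enteroendocrine-like cells, at 146 CPM in WT against 209 CPM in MG53-TG. Klf6, Nfkbia, Zfp36 and Atf3 were highest in ileal absorptive-like cells in both libraries. Dnaja1 peaked in tuft-like cells (456 and 534 CPM) rather than in stem-like cells (210 and 252 CPM). The WT tuft-like sum held 9 of the 36 Hspa1b UMIs, and that of MG53-TG 17 of 52. Hspa1a had 0 UMIs in WT tuft-like cells and 9 in MG53-TG, more than in any other type.

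**Figure D2:**
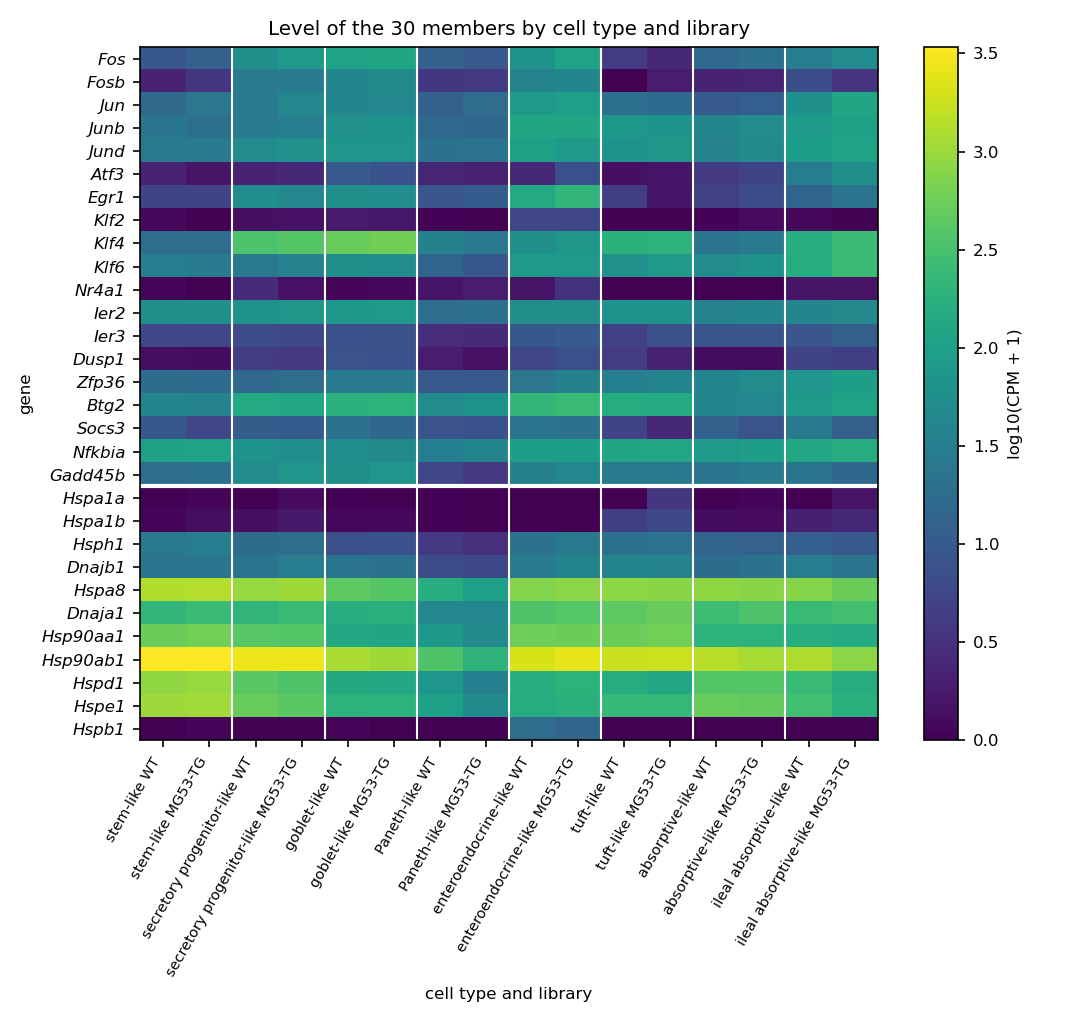
Level of each member (rows) by epithelial cell type and library (columns, WT left and MG53-TG right within a type), as log10(CPM + 1) in colour. Immediate early genes stand above the thick line and are brightest in goblet-like, enteroendocrine-like and ileal absorptive-like cells, whereas Hsp90ab1, Hspa8, Hspd1 and Hspe1 under it are brightest in stem-like cells and dimmest in Paneth-like cells.

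The chaperonin pair moved together. Hspd1 ranged from 32.1 CPM in Paneth-like cells of MG53-TG to 974 CPM in stem-like cells of MG53-TG, a 30.3-fold range, and Hspe1 from 48.6 to 1115 CPM over the same types. Meanwhile the ratio of Hspe1 to Hspd1 stayed between 0.911 and 1.70 in all 16 type sums. For Hsp90, Hsp90ab1 was 3.02 to 8.82 times as high as Hsp90aa1. The lowest of these ratios were in tuft-like cells, where Hsp90aa1 was relatively frequent (555 and 603 CPM). These are counts of 3′ ends and are not per length.

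Because types differ so much, the makeup of the libraries enters the epithelial sums. Goblet-like cells were 28.0% of epithelial cells in WT and 42.1% in MG53-TG, stem-like cells 21.2% and 13.0%, and Paneth-like cells 4.02% and 2.11%. When WT levels in each of the 18 clusters were kept and only the makeup of UMIs was changed to that of MG53-TG, the immediate early sum became 884 CPM, a log2 ratio of 0.30 out of the 0.43 observed. At the WT makeup in both libraries the ratio was 0.13. The chaperone sum was 3590 CPM with WT levels and the MG53-TG makeup, a ratio of -0.15 out of -0.16, and at the WT makeup the ratio was -0.00. In this comparison, added after the data were seen, Fos had 0.26, Fosb 0.16, Klf4 0.15 and Gadd45b 0.22 at the WT makeup, all under the size used for a call. Egr1 went from 0.48 to 0.08 and Btg2 from 0.39 to 0.06. Socs3 went from -0.38 to -0.59, and Dnaja1 remained at 0.28. Hspd1 and Hspe1 changed sign, to 0.10 and 0.04, as did Hsp90aa1, to 0.07, and Dusp1, to -0.08.

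**Figure D3:**
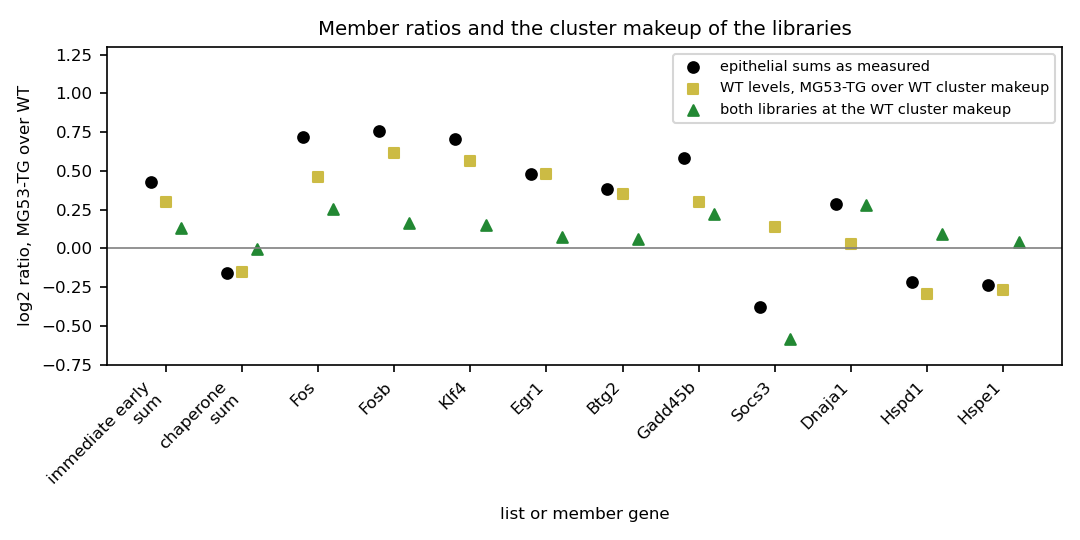
Log2 ratio (MG53-TG over WT, vertical axis) of the list sums and of selected members in epithelial cells. Circles are the measured sums, squares the WT levels weighted by the MG53-TG over the WT cluster makeup, and triangles both libraries weighted by the WT makeup, where the immediate early sum falls from 0.43 to 0.13 and the chaperone sum lies at 0.

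Within types, immediate early sums differed less than in the epithelial sum, except in ileal absorptive-like cells (0.46). That type pools clusters of unlike level, cluster 2 (0.43) and cluster 14 (0.30), and both lie under its pooled ratio. In goblet-like cells the log2 ratio was 0.10 (interval 0.08 to 0.12), with Fos at 0.17, Fosb at 0.18, Klf4 at 0.16 and Gadd45b at 0.31. None of the 14 tested members was called there, against 0.861% of genes higher and 0.919% lower. In stem-like cells the sum had a ratio of 0.04 (interval -0.01 to 0.08), and Jun (15.7 and 24.2 CPM) was the 1 called gene of 11, against 1.08% higher and 0.899% lower. Secretory progenitor-like cells gave 0.15 with Jun alone of 13 called (28.5 and 43.2 CPM, 69 and 169 UMIs), against 8.52% higher and 3.01% lower. Tuft-like cells gave 0.02 (interval -0.06 to 0.11), which is below the median of all genes there (0.05), with 0 of 10 called against 5.75% higher and 4.80% lower. In absorptive-like cells the sum was at 0.25 (interval 0.21 to 0.29). There 0 of 12 were called higher against 2.48% of genes, and 1, Socs3, was called lower (11.4 and 7.26 CPM, log2 ratio -0.65) against 1.25%.

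Enteroendocrine-like and ileal absorptive-like cells had more called members. In enteroendocrine-like cells, 3 of 14 immediate early genes were called higher, against 7.67% of genes. These were Fos (62.0 and 111 CPM, log2 ratio 0.84, interval 0.50 to 1.18), Egr1 (0.52, interval 0.29 to 0.75) and Zfp36 (46 and 61 UMIs, 0.56, interval -0.01 to 1.15). None was called lower, against 7.77%. In ileal absorptive-like cells the sum was 1027 CPM in WT against 1417 CPM in MG53-TG, a log2 ratio of 0.46 (interval 0.40 to 0.53). Of 15 tested members, 7 were called higher against 12.7% of genes, namely Fos, Jun, Atf3, Egr1, Klf4, Klf6 and Ier3. Jun had the highest ratio, from 58.8 to 120 CPM (1.03, interval 0.79 to 1.28), and Klf6 had 153 and 254 CPM (0.73). Socs3 (27.7 and 10.8 CPM, -1.36, interval -2.10 to -0.70) and Gadd45b (22.8 and 14.9 CPM, -0.62, interval -1.25 to -0.03) were called lower, against 10.7%. The type rests on 513 WT cells and 168 MG53-TG cells in 2 clusters. Cluster 2 was shallow, with medians of 3352 and 4360 UMIs, and had 2393 and 3234 CPM of immediate early genes (0.43), whereas cluster 14 had 678 and 832 CPM (0.30). Cluster 11, with 495 and 405 cells, had ileal absorptive as its best marker list but stayed unnamed by the rule on shallow clusters, and counting it in gave 0.36 for immediate early genes and -0.58 for chaperones. This comparison was added after the data were seen.

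**Figure D4:**
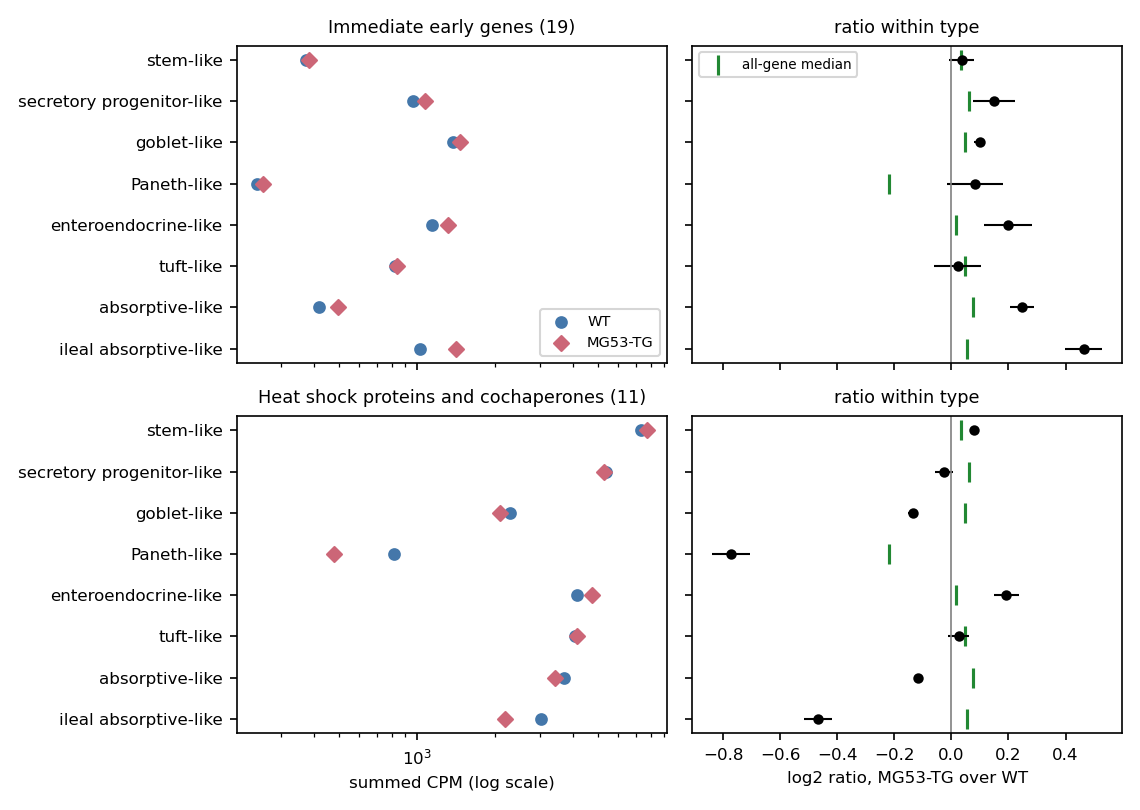
Left, summed CPM of each list (log scale) in 8 epithelial types, with WT as circles and MG53-TG as diamonds. Right, log2 ratio of MG53-TG over WT within each type with 95% counting intervals, beside the median of all genes tested (upright tick); immediate early sums lie above 0 in all 8 types, with intervals that span 0 in stem-like, Paneth-like and tuft-like cells, and chaperone sums from -0.77 in Paneth-like to 0.19 in enteroendocrine-like cells.

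Chaperones were lower in MG53-TG chiefly in Paneth-like and ileal absorptive-like cells. In Paneth-like cells the sum was 816 CPM in WT against 477 CPM in MG53-TG, a log2 ratio of -0.77 (interval -0.84 to -0.71), and 5 of 6 tested members were called lower. This stands beside 24.8% of all genes called lower in that type, with a median over all genes of -0.22. The 5 were Hspa8, Hsp90aa1, Hsp90ab1, Hspd1 and Hspe1, of which Hspd1 had the lowest ratio (69.8 and 32.1 CPM, -1.12, interval -1.38 to -0.87). Dnaja1, at 41.8 and 44.3 CPM, was not among them. Relative to the median of all genes in the type, the sum was at -0.55. Immediate early genes gave 0.08 there, with Jun called higher against 2.46% of genes and Klf6 called lower, and 0.30 relative to that median. In ileal absorptive-like cells the chaperone sum was 3027 and 2190 CPM (-0.47, interval -0.52 to -0.42), and 5 of 8 were called lower, against 10.7% of genes, namely Dnajb1, Hspa8, Hsp90ab1, Hspd1 and Hspe1. Dnaja1 was again above 0, at 0.33. In the remaining 6 types no chaperone was called, where the shares of all genes called ran from 0.861% in goblet-like to 8.52% in secretory progenitor-like cells (higher) and from 0.899% in stem-like to 7.77% in enteroendocrine-like cells (lower). Their sums had ratios from -0.14 in goblet-like cells to 0.19 in enteroendocrine-like cells, and in stem-like cells the ratio was 0.08 (interval 0.07 to 0.09).

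A pair of members kept their direction across types. Socs3 was lower in MG53-TG in 8 of 8 types, with an interval below 0 in 4 of them, and Dnaja1 was higher in 8 of 8, with an interval above 0 in 7. Fos was higher in 6 of 8 types, with an interval above 0 in 6 of them, and Klf4 in 6, with an interval above 0 in 4 and one below 0 in Paneth-like cells (35.0 and 25.2 CPM). The immediate early sum was higher in MG53-TG in 18 of 18 clusters, from 0.01 in cluster 5 (stem-like) to 0.43 in cluster 2, with an interval above 0 in 13 and spanning 0 in 5. The chaperone sum was higher in 7 of 18, with an interval above 0 in 5 and below 0 in 8. These counts are taken against 0, and the median of all genes was above 0 in every named type but Paneth-like. The immediate early sums of cluster 5 and of the tuft-like cluster 16 (0.02) lay below the medians of their types (0.03 and 0.05). Types and clusters of the same 2 libraries are not replicates.

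In single cells thinned to 1354 UMIs each, so that depth was equal, an immediate early UMI was present in 59.6% of WT epithelial cells (58.4 to 60.9%) and in 70.2% of the MG53-TG ones (68.8 to 71.5%). The means were 1.33 and 1.71 UMIs per cell. These shares are over libraries of unlike makeup. Within types they were 80.3% (78.4 to 82.2%) and 83.1% (81.4 to 84.8%) in goblet-like, 71.8% and 73.9% in secretory progenitor-like, 36.2% (33.6 to 38.9%) and 44.3% (40.2 to 48.3%) in stem-like, and 69.6% and 81.0% in ileal absorptive-like cells. A chaperone UMI was found in 89.0% and 89.0% of cells, with means of 4.85 and 4.28 UMIs. Unthinned, 98.2% and 99.1% of cells had an immediate early UMI. Fos was found in 12.1% of thinned goblet-like cells of WT (interval 10.6 to 13.7) and 14.96% of those of MG53-TG (interval 13.4 to 16.6), against 0.909% of tuft-like cells in WT and 0 of 238 in MG53-TG, where 3 counts, the limit taken for a count of 0, allow thinned cells with a UMI a share of up to 1.26%. Unthinned, these shares were 50.8% and 59.6% against 3.64% and 2.10%, at median depths of 14458 and 17948 UMIs for goblet-like and 10862 and 14035 UMIs for tuft-like cells. The variance over the mean of the immediate early UMIs was 1.94 in WT and 1.80 in MG53-TG goblet-like cells, and 3.28 and 3.42 in ileal absorptive-like cells. The latter type pools clusters 2 and 14, whose immediate early levels differ severalfold.

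Pairs of members were also counted in the same thinned goblet-like cells. Egr1 was found in 16.7% of the 84 WT cells with a Fosb UMI (interval 9.42 to 26.4) and in 5.94% of the other 1634 (interval 4.84 to 7.19). In MG53-TG the shares were 24.3% of 140 (interval 17.4 to 32.2) and 6.90% of 1798 (interval 5.77 to 8.17). Fosb was found in 10.1% of WT cells with a Fos UMI and 4.17% of those without, and in 15.2% and 5.83% in MG53-TG. Hspa8 showed no such excess, with 38.5% of WT cells with Fos (interval 31.8 to 45.4) and 40.7% without (interval 38.2 to 43.2), and 33.4% and 39.7% in MG53-TG. For Klf4 the intervals overlapped in both libraries. It was in 52.9% of WT cells with Fos (interval 45.9 to 59.8) and 47.1% without (interval 44.5 to 49.6). In MG53-TG the shares were 59.3% (interval 53.4 to 65.0) and 52.2% (interval 49.8 to 54.7). Jun was found in 13.4% of MG53-TG cells with Fos (interval 9.74 to 17.9) and 4.92% of those without (interval 3.92 to 6.07). In WT these intervals overlapped, at 8.17% (interval 4.83 to 12.8) and 4.503% (interval 3.51 to 5.67). Enteroendocrine-like cells gave wider intervals. There Jun was in 35.5% of MG53-TG cells with Fos (interval 19.2 to 54.6) and 9.42% of those without (interval 5.11 to 15.6), and in WT in 27.3% (interval 10.7 to 50.2) and 9.54% (interval 6.15 to 13.98). Egr1 was in 31.8% and 16.2% in WT and 32.3% and 17.4% in MG53-TG, with overlapping intervals. Fosb was in 4.55% of the 22 WT cells with Fos and 3.73% of those without, and in 9.68% and 5.07% in MG53-TG. Hspa8 was in 27.3% (interval 10.7 to 50.2) and 57.7% in WT but in 71.0% and 65.9% in MG53-TG. Before thinning, goblet-like cells with a Fos UMI had a median of 12808 UMIs in WT against 17568 in MG53-TG, and those without had 14585 and 17977. Goblet-like cells comprise 4 clusters with unlike levels, and whether the overlap holds within each was not measured.

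The mitochondrial share of a cell, which is high in damaged cells and in energy-rich cells alike, went with both lists. Bins of this share were not matched for cell type. Its median in WT was 0.948% in Paneth-like, 3.28% in goblet-like and 4.97% in stem-like cells, and 12.7% in unnamed cluster 11. Whether the lists go with the share within a type was not tested. Per 1000000 non-mitochondrial UMIs, the immediate early sum in WT was 804 at 0 to 5%, 607 at 5 to 10%, 858 at 10 to 15%, 987 at 15 to 20% and 1274 at 20 to 25%. In MG53-TG the same bins gave 1097, 704, 1153, 1372 and 1784. The chaperone sum went from 3948 and 5053 in the lowest bins of WT to 2321 at 20 to 25%, and in MG53-TG from 3576 and 4731 to 2015. Barcodes at 25 to 50%, over the limit used elsewhere in these results, had 1459 and 1561 for immediate early genes (log2 ratio 0.10) and 1568 and 1499 for chaperones (-0.06). MG53-TG was higher in immediate early genes in each of these bins, with log2 ratios from 0.22 to 0.49 under the limit. With equal makeup of the 5 bins under the limit, the ratios over epithelial cells were 0.40 and -0.15.

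**Figure D5:**
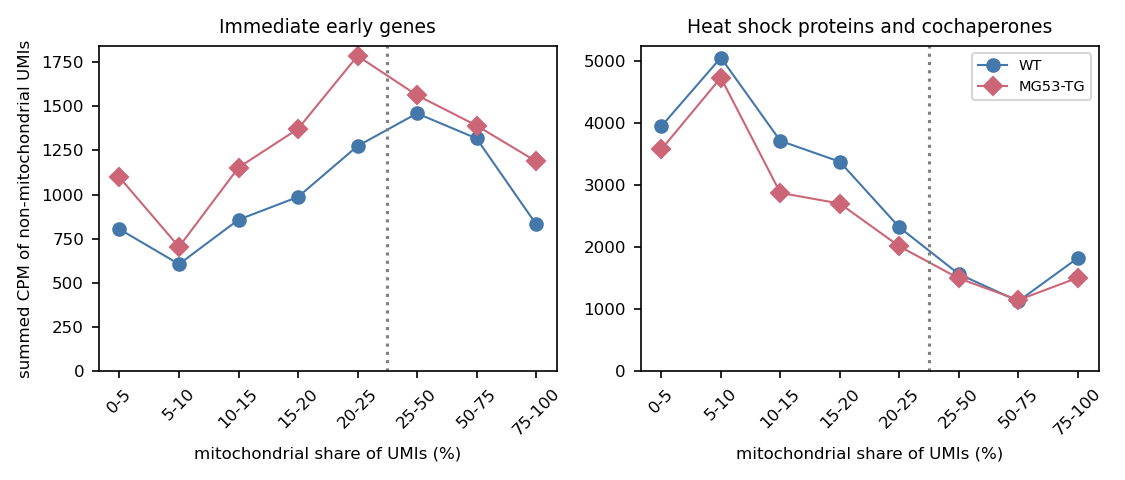
Summed level of each list per 1000000 non-mitochondrial UMIs (vertical axis) by the mitochondrial share of UMIs of the cells (horizontal axis), in WT (circles) and MG53-TG (diamonds). The dotted line marks the limit of 25%. Immediate early sums climb from 607 to 1274 in WT between 5 and 25% while chaperone sums drop from 5053 to 2321. Bins are not matched for cell type.

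Free RNA could be read in WT only, since the MG53-TG table started at 500 UMIs. The 1434842 WT droplets with 1 to 100 UMIs held 6059698 UMIs. Per 1000000 non-mitochondrial UMIs, they had 1520 immediate early and 2999 chaperone UMIs, against 764 and 4197 in kept cells. Fos had 252 in droplets and 41.8 in cells, and Dusp1 had 51.9 and 2.79. Hspa1b had 12.5 and 0.351 (65 droplet UMIs). Klf4, by contrast, had 179 and 177, and Dnaja1 had 217 and 215. The 13 T cell markers were 137 times and the 8 B or plasma cell markers 76.8 times as frequent in these droplets as in WT epithelial cells, whereas goblet markers stood at 0.801 times. What part free RNA had in the cell levels was not tested, and its level in MG53-TG was not measured here.

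Beside the shares of all epithelial genes called, 4.89% higher and 0.923% lower, the further lists gave few calls. Of 44 further immediate early genes, 21 met the minimums and 2 were called higher, Bhlhe40, a circadian repressor (38.0 and 54.5 CPM, log2 ratio 0.52), and Nfkbiz, a nuclear IκB protein (30.9 and 44.2 CPM, 0.52). The median over the 39 with at least 30 UMIs was 0.19, against 0.090 for all such genes, and over the 21 it was 0.17, against 0.10. Outside the rule for named genes, and chosen after their values were seen, Plk2 (4.44 and 7.25 CPM, 0.71) and Fosl1 (30 and 5 UMIs, -2.35, interval -4.07 to -0.97) were too low to be tested. Of 33 further cytosolic chaperones and cochaperones, 24 met the minimums, none was called, and the median was 0.10. Chosen in the same way, Dnajb2 (8.31 and 11.5 CPM, 0.47) and Chordc1 (27.02 and 35.4 CPM, 0.39) had ratios above that of Dnaja1. The 8 subunits of the cytosolic chaperonin TRiC, which folds actin and tubulin, were all below 0 with a median of -0.13, and the 8 mitochondrial chaperones had a median of -0.06. These are epithelial sums over libraries of unlike makeup. Within types, the TRiC subunits above 0 ran from 0 of 8 in Paneth-like and ileal absorptive-like cells to 7 of 8 in enteroendocrine-like cells. The upstream regulators showed little. Hsf1, the heat shock factor, had 9.40 and 8.80 CPM (interval of the log2 ratio -0.23 to 0.04), and Creb1, which binds the CRE, had 22.1 and 24.9 CPM (0.17). Mapk14, which encodes the p38 kinase, had 21.9 and 26.5 CPM (0.27, interval 0.19 to 0.36), and Stat3 had 44.3 and 46.7 CPM (0.07). Of the 17 regulators, 11 met the minimums and none was called.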

How the data were processed

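The counts deposited by the authors were UMIs per gene and barcode from Cell Ranger, not scaled; per the file headers, version 4 made the WT table and 6.0.1 the MG53-TG table. The submitters' processing notes name mm10 and Seurat. Strand use and the handling of multimapped reads are not stated. The WT table held all barcodes and the MG53-TG table those of at least 500 UMIs, so that program version, barcode list and genotype cannot be told apart.

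A barcode passed with 1354 or more UMIs, 200 or more genes and a mitochondrial share of 25% or less (7401 WT, 5153 MG53-TG). The automatic Scrublet threshold marked 0.0135% and 0.0388% of them, so a rate of 0.8% per 1000 cells set how many top scorers were dropped (438 and 212). In WT 6963 cells (108864593 UMIs) and in MG53-TG 4941 cells (91252276 UMIs) were kept. Cells were clustered jointly in scanpy 1.11.5 (2000 variable genes, 30 components, 15 neighbours, Leiden at resolution 1, no integration) without the members, the other pathway lists and Trim72, which gave 21 clusters. A cluster was named X-like when at least 3 markers of a list were detected in 10% of its cells at 1.5 times the level elsewhere, unless its median UMI count was under that of a library divided by 3 and none of the list's markers was among its 10 leading genes (clusters 10 and 11; cluster 2 was as shallow but had such markers). Markers of the cell cycle did not decide a name. The rule that left cluster 17 unnamed because villus enterocyte genes led it was settled after clusters were seen, and names may differ from those of the study.

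UMIs were summed per library and type and divided by all UMIs (CPM). UMI sums have exact Poisson, ratios exact conditional binomial and shares Clopper-Pearson intervals, computed with scipy 1.17.1. A gene met the minimums with 30 UMIs over both libraries and 10 CPM in either. The computation of calls and intervals was checked on simulated counts, drawn from WT proportions with Poisson error and planted changes of 1 on the log2 scale. Of the planted changes that met the minimums 100% were called, and intervals covered the set value in 94.97% of genes. The simulation held no variation between libraries, mice or cells, so it cannot measure that error. Alternatives were other limits on cells, scalings, folds, pseudocounts and cluster makeups. All 30 members are named; of each further list, called genes (at most 3 per direction) and upstream regulators are named. Members and lists were chosen with earlier results of these data known. Coordinates are from GENCODE vM21 (GRCm38, the assembly of mm10).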

Additional observations from a re-analysis of the deposited data

Results flagged for a closer look

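Klf6 went in opposite directions between libraries in different types, with a log2 ratio of 0.73 (interval 0.57 to 0.89, 153 and 254 CPM) in ileal absorptive-like cells and -0.65 (interval -1.21 to -0.13, 12.6 and 8.03 CPM) in Paneth-like cells. In the latter, 24.8% of all genes were called lower, and relative to the median of all genes of the type (-0.22) Klf6 was at -0.43, under the size of a call. The difference between these ratios was not tested.

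In the WT droplets of 1 to 100 UMIs, which no comparison between libraries used, 6 members were at least 5 times as frequent per non-mitochondrial UMI as in kept cells. These were Hspa1b at 35.6 times (interval 27.5 to 45.4), Dusp1 at 18.6 times (interval 16.5 to 21.0), Nr4a1 at 18.0 times (interval 13.4 to 23.6), Hspa1a at 7.40 times (3 UMIs, interval 1.53 to 21.6), Klf2 at 6.26 times (13 UMIs, interval 3.33 to 10.7) and Fos at 6.04 times (interval 5.72 to 6.38). The intervals cover the counting error of the droplets only.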

How the results depend on the processing

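The immediate early sum kept a log2 ratio above 0 under 14 of 14 alternatives and its median under 18 of 18. The chaperone sum stayed below 0 under 13 of 13 and its median under 16 of 17. Values left the counting interval, against 0.43 and -0.16 for the sums, as follows, and where no reason is given the cause was not tested. Keeping doublets gave 0.40 for the immediate early sum and -0.15 for the chaperone sum. A mitochondrial limit of 50% gave 0.39 and -0.24 (chaperone median -0.18), and one of 10% gave -0.15 for chaperones. A minimum of 5000 UMIs gave 0.46 and -0.17. The mean of single-cell CPM gave 0.31 and -0.19. Scaling by the median of ratios gave 0.33 and -0.26, with medians of 0.20 and -0.23. Weighting each named type equally gave 0.19 and -0.033, with an immediate early median of 0.19. The same makeup of mitochondrial shares gave 0.40 and -0.15. Members of at least 20 CPM gave a chaperone median of -0.18. Of the alternatives added after the data were seen, the WT cluster makeup gave sums of 0.13 and -0.0015 and medians of 0.10 and 0.057, leaving out Klf4 gave 0.33, and leaving out the unnamed epithelial clusters gave -0.15 for chaperones. The 4 called members became 8 at a log2 ratio of 0.3, 0 at a log2 ratio of 1 and 3 under the median of ratios, without Gadd45b.

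Within types, scaling by the median of ratios moved the immediate early sums to 0.051 in goblet-like, 0.30 in Paneth-like and 0.17 in absorptive-like cells. It moved the chaperone sums to 0.045 in stem-like, -0.18 in goblet-like, -0.55 in Paneth-like, -0.089 in secretory progenitor-like, -0.022 in tuft-like, -0.19 in absorptive-like and -0.52 in ileal absorptive-like cells. With the members left in the clustering, immediate early genes had 0.33 in ileal absorptive-like cells, and chaperones had 0.17 in tuft-like, -0.16 in absorptive-like and -0.59 in ileal absorptive-like cells. A mitochondrial limit of 10% gave 0.17 and -0.096 in absorptive-like cells. Counting cluster 11 as ileal absorptive-like, added after the data were seen, gave 0.36 and -0.58. Of 50 values within types, 47 kept their sign, and the others were in tuft-like cells, where immediate early genes had -0.025 and chaperones -0.022 under the median of ratios, and chaperones -0.0063 at the limit of 10%.

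Of 450 values for single members, 332 stayed within the counting interval and 430 kept their sign. Those that did not were of Hsph1, Klf2, Nfkbia and Nr4a1, whose intervals spanned 0, and the 7 that follow. Dusp1 had -0.14 with types weighted equally and -0.082 at the WT makeup. Hsp90aa1 had 0.0026 and 0.071 there, and Hspd1 and Hspe1 had 0.10 and 0.044 at the WT makeup. Dnajb1 had -0.0011 under the median of ratios. No paired analysis was possible because each group has 1 library. Members with few UMIs, such as Hspa1a, Klf2, Nr4a1 and Hspb1, are limited by depth.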

Other observations

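T cell-like cells, which the sort for EpCAM had not fully removed, had another immediate early profile (553 WT and 226 MG53-TG cells). Nr4a1, a gene that antigen receptor signals induce, had 13.3 CPM in WT (23 UMIs) and 19.5 CPM in MG53-TG (17 UMIs), against 0.235 and 0.200 CPM in epithelial cells. Egr1 had 37.0 and 86.0 CPM there (64 and 75 UMIs, log2 ratio 1.22, interval 0.72 to 1.72), and Btg2 had 182 and 251 CPM (0.46, interval 0.21 to 0.72). Klf4, the leading epithelial member, had 13 and 11 UMIs. The immediate early sum was 760 and 944 CPM (0.31, interval 0.19 to 0.44), and the chaperone sum was 2758 and 2901 CPM (0.07).

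An unnamed epithelial cluster led by Plb1, Enpp7 and Slc34a2, with a median mitochondrial share of 12.7% in WT and 14.6% in MG53-TG (cluster 11, 495 and 405 cells) had 1434 and 1555 CPM of immediate early genes and 1304 and 1320 CPM of chaperones.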
